A study of Mus musculus with 8 samples.

Results

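The 4 mature miRNA names of the mouse miR-126 locus, miR-126a-3p, miR-126a-5p, miR-126b-5p and miR-126b-3p, were followed across mouse liver and liver mitochondria. They were taken by name from the first column of the deposited tables and make up 4 of the 862 names listed there. All 4 were listed in every library.

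Small RNA was sequenced from livers of male C57BL/6J mice that were 8 weeks old at the start and were then kept for 12 weeks under caloric restriction (CR) or with food ad libitum (AL). The CR ration was cut by 20% for the opening week and by 40% for the 11 weeks after it. Mitochondria, purified to mitoplasts by differential centrifugation, gave 3 CR and 3 AL libraries, and whole liver gave 1 CR and 1 AL library, each from a pool of 3 RNA samples mixed in equal amounts. The comparison addressed by the series is that of miRNA levels between the diets in each of these fractions.

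miR-126 is processed from an intron of Egfl7, a gene for a secreted protein made by endothelial cells, and is closely tied to the endothelium of blood vessels. Its 3p arm is known to hold down Spred1 and Pik3r2, inhibitors of signalling from the VEGF receptor, and so to favour vessel growth and integrity. Its 5p arm is also loaded and is known to act on Dlk1 in endothelial cells. In liver the gene is thus a marker of sinusoidal and other vascular endothelium rather than of hepatocytes. The name miR-126b belongs to a hairpin annotated on the opposite strand of the same DNA.

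The mature sequences are shown because the 4 names come from 1 stretch of DNA read in both directions, which bears on how their reads can be told apart. Capitals mark the seed, bases 2 to 8 from the 5′ end. The sequences are those of the deposited tables, placed on the RefSeq hairpins of GRCm38.p6.
miR-126a-3p: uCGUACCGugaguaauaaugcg
miR-126a-5p: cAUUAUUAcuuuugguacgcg
miR-126b-5p: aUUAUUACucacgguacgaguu
miR-126b-3p: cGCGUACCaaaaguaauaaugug
The 4 seeds differ from one another, and 0 of the other listed names shared any of them. miR-126a-3p lies at chr2:26591402-26591423 on the + strand and miR-126a-5p at chr2:26591365-26591385 on the + strand. miR-126b-5p lies at chr2:26591399-26591420 on the − strand and miR-126b-3p at chr2:26591363-26591385 on the − strand. RefSeq lists 3 of them as mature miRNAs with the same sequence, and miR-126a-5p was placed by its match inside the Mir126a hairpin.

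Both hairpins are printed to show that their arms face each other, with the mature arms in capitals. Mir126a spans chr2:26591357-26591429 on the + strand, 73 bases, and Mir126b spans chr2:26591363-26591420 on the − strand, 58 bases.
Mir126a: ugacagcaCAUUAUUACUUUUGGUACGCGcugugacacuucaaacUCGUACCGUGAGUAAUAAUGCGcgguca
Mir126b: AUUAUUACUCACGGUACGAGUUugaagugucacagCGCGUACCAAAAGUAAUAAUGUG
In the GENCODE M21 annotation the Mir126a hairpin lies in an intron of 8 of the 9 Egfl7 transcripts that span it, and in an exon of 1, a retained-intron transcript. It also lies in an intron of 1 transcript of Gm20532 on the same strand. miR-126a-5p falls wholly inside the footprint of miR-126b-3p, with 21 shared positions. miR-126a-3p and miR-126b-5p share 19 positions and are staggered by 3 bases at each end.

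**Figure D1:**
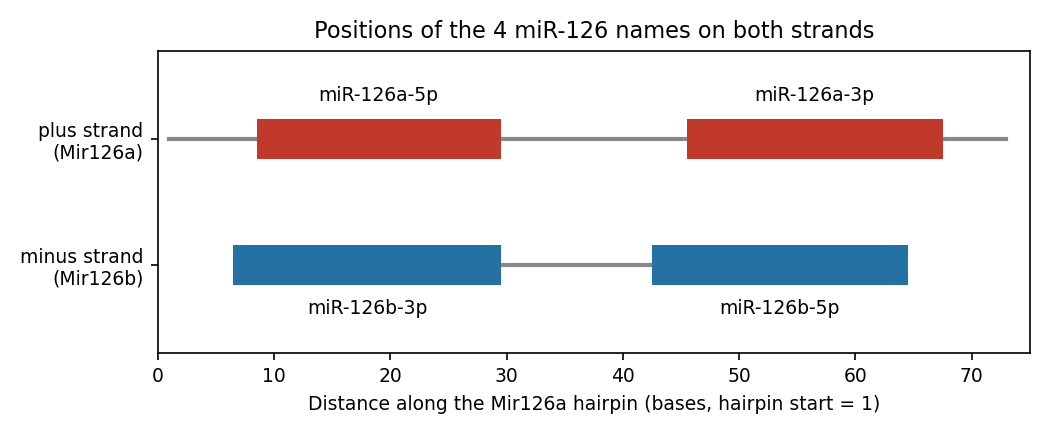
Footprints of the 4 mature miRNAs and the 2 hairpins along the locus, in bases from the first base of Mir126a, with the + strand above and the − strand below. miR-126a-5p sits inside miR-126b-3p, and miR-126a-3p and miR-126b-5p overlap with 3 bases free at each end.

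The mitochondrial libraries held 1070762 to 1577691 miRNA reads and the CR and AL pools 3242002 and 2431564. These reads were worked back from the deposited RPM, in which the reads of each library are scaled to sum to 1000000. miR-122 (both arms together), the dominant miRNA of hepatocytes, took 25.2% to 58.1% of the mitochondrial reads and 25.5% to 26.3% of those of the pools. Pearson's r of log2 values between mitochondrial libraries was 0.952 to 0.974. Whether the 3 mitochondrial libraries of a diet came from separate animals is not given in the labels. The p-values therefore measure only how these libraries spread, which may be technical. In bulk liver, fewer endothelial cells and less miR-126 per cell cannot be told apart.

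miR-126a-3p was the most abundant of the 4 names in every library. Its level in CR mitochondria was 5549, 15420 and 6252 RPM in replicates 1, 2 and 3, from 6664, 24328 and 6694 reads. In AL mitochondria it was 6880, 8184 and 5653 RPM, from 7453, 8962 and 8041 reads. The CR whole-liver pool had 13744 RPM, from 44557 reads, and the AL whole-liver pool 17969 RPM, from 43692 reads. Among all listed names it ranked 13 to 16 by level in the mitochondrial libraries and 11 and 10 in the CR and AL pools. CR replicate 2 stood above the other 5 mitochondrial libraries and above the CR pool, and the other 5 lay below both pools.

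miR-126a-5p, the other arm of the hairpin, was listed at 1453, 2646 and 456 RPM in CR mitochondria. AL mitochondria had 2557, 836 and 1041 RPM. The CR pool had 1234 RPM and the AL pool 1638 RPM, both inside the range of the mitochondrial libraries. The arm varied more between mitochondrial libraries than the other one did: the highest was 5.81 times the lowest for miR-126a-5p and 2.78 times for miR-126a-3p. CR replicate 3 was the lowest for miR-126a-5p, whereas for miR-126a-3p it lay close to the middle of the 6.

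miR-126b-5p, which faces the 3p arm of miR-126a, was the least abundant. It had 60.8, 73.5 and 37.4 RPM in CR mitochondria, from 73, 116 and 40 reads. In AL mitochondria it had 96.0, 45.7 and 61.9 RPM, from 104, 50 and 88 reads. The CR pool had 158.5 RPM, from 514 reads, and the AL pool 108.2 RPM, from 263 reads. In RPM, all 6 mitochondrial libraries were below both pools for this name and for none of the other 3. Of the 417 tested names 113 (27.1%) were likewise lower in all 6, so the absence of overlap was frequent among miRNAs. For miR-126b-5p it depended on the scaling. With miR-122 left out of the total, AL replicate 1 was at 154.7, above the AL pool at 145.2 and below the CR pool at 215.3. The other mitochondrial libraries stayed below both pools on that scale.

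**Figure D2:**
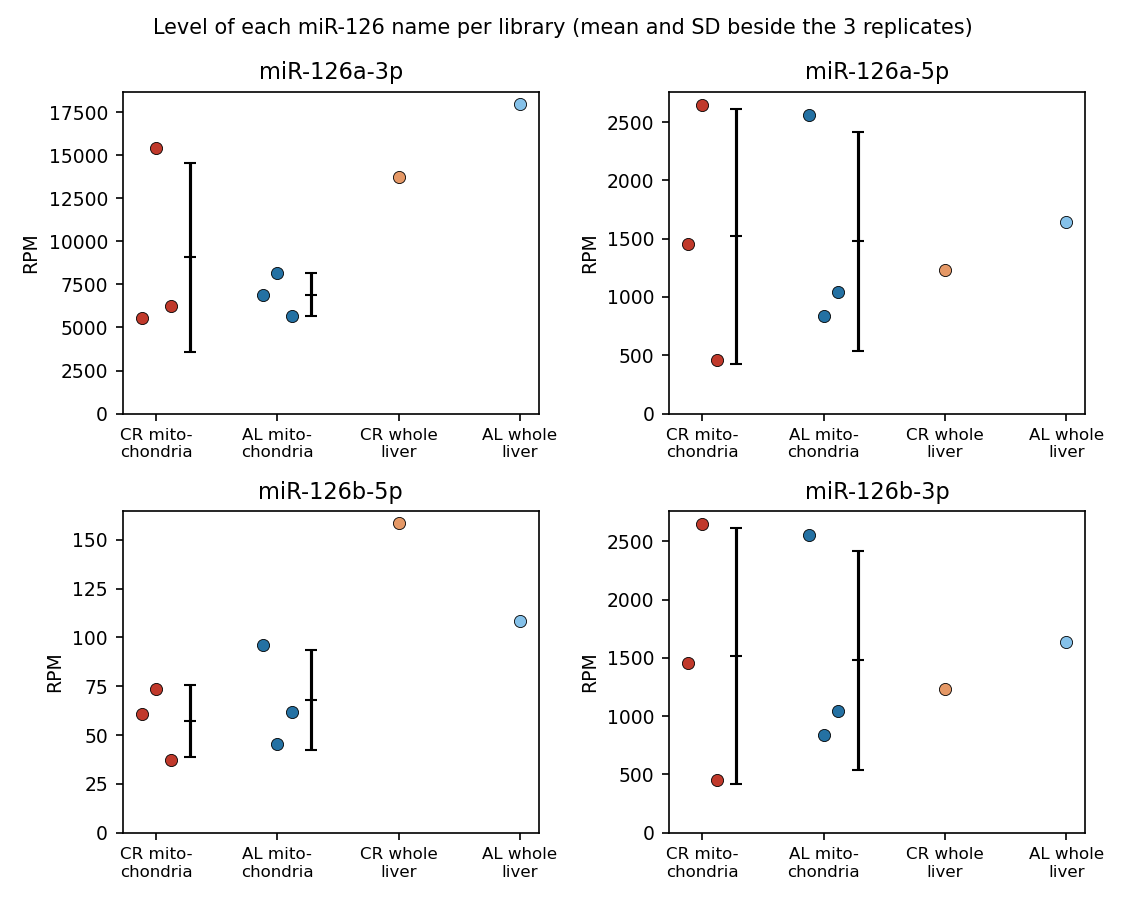
Level of each miR-126 name in the 8 libraries, in RPM on a linear axis, 1 panel a name, with points for libraries and, beside the 3 mitochondrial libraries of a diet, their mean and SD. The CR and AL mitochondrial points overlap for all 4 names, and only miR-126b-5p has every mitochondrial point below both pools.

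miR-126b-3p, which faces the 5p arm, carried the same number of reads as miR-126a-5p in 7 of the 8 libraries. In CR mitochondria both names had 1745, 4175 and 488 reads, in AL mitochondria 2770, 915 and 1481, and in the AL pool 3984. In the CR pool they had 4001 reads (miR-126b-3p) and 4002 reads (miR-126a-5p). Summed over the 8 libraries miR-126b-3p had 19559 reads and miR-126a-5p 19560. The values of these names are therefore 1 measurement printed under both, and how strand was used in counting is not given in the sources used here. Without strand, reads from a gene and from its antisense partner cannot be told apart.

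The other antisense pair of the locus did not share its reads in this way. Summed over the libraries, miR-126b-5p had 1248 reads and miR-126a-3p 150391, or 0.830% as many. By library, miR-126b-5p reads were 1.10%, 0.477% and 0.598% of the miR-126a-3p reads in CR mitochondria and 1.40%, 0.558% and 1.09% in AL mitochondria. They were 1.15% in the CR pool and 0.602% in the AL pool. The percentage did not separate the diets or the fractions.

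Other names with reverse-complementary sequences were set beside these pairs. They were matched by sequence alone, and whether both names of a pair come from the same locus was not checked. Of the 36 pairs of listed names that were reverse complements over at least 16 bases, 17 besides those of miR-126 had at least 20 reads on each name over the 8 libraries. In 12 of these 17 the smaller count was within 10% of the larger. The smaller count was 1.88% to 100% of the larger, with a median of 97.6%, beside 0.830% for miR-126b-5p to miR-126a-3p. The 1.88% came from miR-24-2-5p and miR-3074-1-3p, which share only 16 bases and are numbered as different hairpins. The next lowest, 3.68%, also shared 16 bases (miR-24-1-5p and miR-3074-2-3p). In all 5 pairs in which the shorter sequence lay wholly inside the longer, as miR-126a-5p does in miR-126b-3p, it was 94.8% to 100%. The minimum of 20 reads itself removes pairs with a small lesser count. Over all 34 other pairs 22 were within 10% and the lowest was 0.0473%, from miR-374c-5p with 1 read beside miR-374c-3p with 2114. That nested pair, by name both arms of the same hairpin, was named after its counts were seen. Without the minimum 8 of 10 nested pairs were within 10%. With the minimum, 7 of the 12 staggered pairs were within 10%. Of the 4 other pairs with the most reads, miR-3074-5p had 14874 reads against 15243 of miR-24-3p and miR-3074-2-3p had 2524 against 2552 of miR-24-2-5p. miR-30f had 1580 reads beside 14116 of miR-30a-3p and 2825 of miR-30e-3p.

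**Figure D3:**
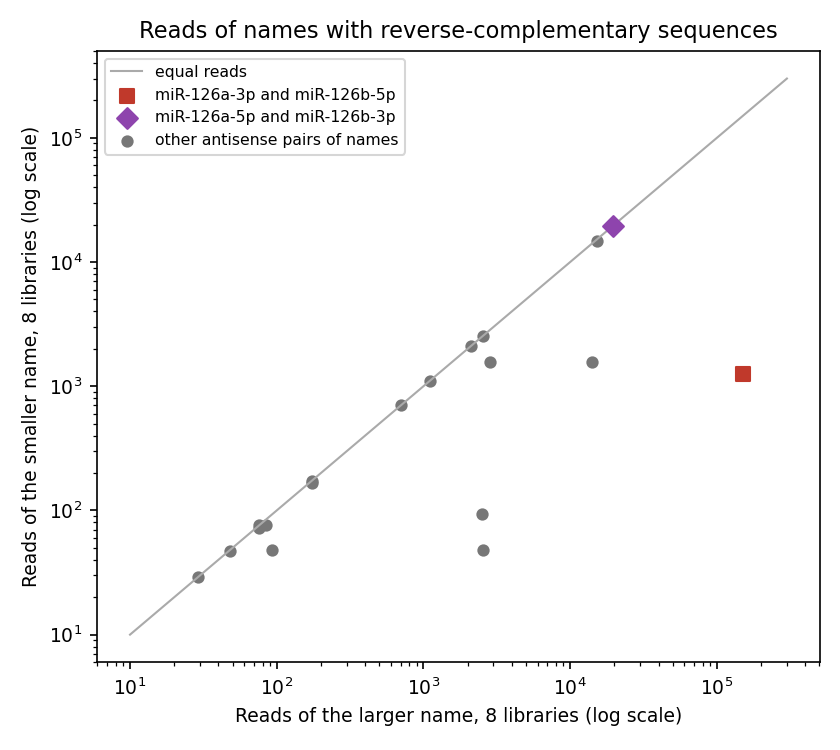
Reads of the 19 name pairs matched by reverse-complementary sequence with at least 20 reads on each name, summed over the 8 libraries. The name of more reads is on the x axis and the name of fewer reads on the y axis, both log scales, with the line of equal reads. miR-126a-5p with miR-126b-3p lies on the line at 19560 and 19559 reads, and miR-126a-3p with miR-126b-5p lies far below it at 150391 and 1248.

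Diet did not separate the mitochondrial libraries for any of the 4 names, and their CR and AL ranges overlapped. miR-126a-3p averaged 9073 ± 5507 RPM in CR mitochondria and 6906 ± 1266 RPM in AL mitochondria (SD, n = 3 each). Its log2 fold change, CR over AL on the log2(RPM + 1) scale, was 0.25 (SE 0.40, 95% interval -0.59 to 1.09, adjusted p 0.843 by limma-trend with Benjamini-Hochberg adjustment). Without CR replicate 2, the library with 15420 RPM, it was -0.21. miR-126a-5p averaged 1518 ± 1097 RPM under CR and 1478 ± 940 RPM under AL, a log2 fold change of -0.11 (SE 0.51, interval -1.18 to 0.96, limma-trend adjusted p 0.956), shared by miR-126b-3p. miR-126b-5p averaged 57.2 ± 18.3 RPM under CR and 67.8 ± 25.7 RPM under AL, a log2 fold change of -0.23 (SE 0.40, interval -1.07 to 0.61, limma-trend adjusted p 0.856).

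With 0 of the 4 names past the threshold of 0.05, the background was 2 of 417 tested names (0.48%), 1 higher and 1 lower, with 53 at an unadjusted p under 0.05. The median log2 fold change of all 417 was -0.17. For 3 of the 4 names the sign depended on the scaling, with miR-126a-5p and miR-126b-3p among them as 1 measurement. With TMM factors the values were 0.22 for miR-126a-5p and miR-126b-3p and 0.10 for miR-126b-5p. The 95% intervals of the 4 names ran from -1.18 at the lowest to 1.09 at the highest.

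CR replicate 2, the library with the highest miR-126a-3p, also had the lowest share of miR-122 reads of the 6, 25.2%. miR-122 took 53.3% and 58.1% in CR replicates 1 and 3, and 38.0%, 45.3% and 41.6% in AL replicates 1, 2 and 3. Scaled to 1000000 reads other than miR-122, miR-126a-3p was at 11878, 20624 and 14929 in CR mitochondria and at 11089, 14962 and 9688 in AL mitochondria. The CR pool was then at 18661 and the AL pool at 24120. CR replicate 2 remained the highest mitochondrial library on this scale, with a smaller distance to the others. The part of the miR-122 share in the level was not tested beyond this rescaling.

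Set against whole liver in a fit of all 8 libraries that also held diet, mitochondria had lower levels of miR-126a-3p and miR-126b-5p. That is 2 of the 4 names, where 90 of the 417 tested names (21.6%) were lower. miR-126a-3p averaged 7990 ± 3766 RPM in mitochondria (SD, n = 6) and had 13744 and 17969 RPM in the pools. The log2 fold change, mitochondria over whole liver, was -1.08 (SE 0.39, interval -1.89 to -0.26, limma-trend adjusted p 0.0424), or 0.474 times the level of the pools. miR-126b-5p averaged 62.5 ± 20.8 RPM in mitochondria and had 158.5 and 108.2 RPM in the pools, a log2 fold change of -1.12 (SE 0.39, interval -1.93 to -0.31, limma-trend adjusted p 0.0342). miR-126a-5p and miR-126b-3p did not pass, with a log2 fold change of -0.18 each (SE 0.50, interval -1.23 to 0.87, limma-trend adjusted p 0.792). In this fit each diet has 1 pool, and the spread of pools is taken to equal that of mitochondrial libraries.

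A further 44 of the 417 names (10.6%) were higher in mitochondria, 134 called in all, and the median log2 fold change was -0.31. Relative to that median, the log2 fold change of miR-126a-3p lay at -0.77 and that of miR-126b-5p at -0.81, whereas that of miR-126a-5p lay at 0.12. Under TMM factors the calls were 59 higher and 72 lower, and with miR-122 left out of the total 66 higher and 63 lower. The call on miR-126a-3p was lost in 14 of 20 alternatives and that on miR-126b-5p in 13 of 19, with the log2 fold change below 0 in all of them.

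Single libraries decided the call as well. For miR-126a-3p the adjusted p by limma-trend was 0.0735 without CR replicate 1, 0.0760 without CR replicate 3 and 0.0564, 0.0533 and 0.0935 without AL replicates 1, 2 and 3. Without CR replicate 2 it was 0.000988, with a log2 fold change of -1.31. For miR-126b-5p it was 0.0626 without CR replicate 3, 0.0585 without AL replicate 2 and 0.0584 without AL replicate 3.

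**Figure D4:**
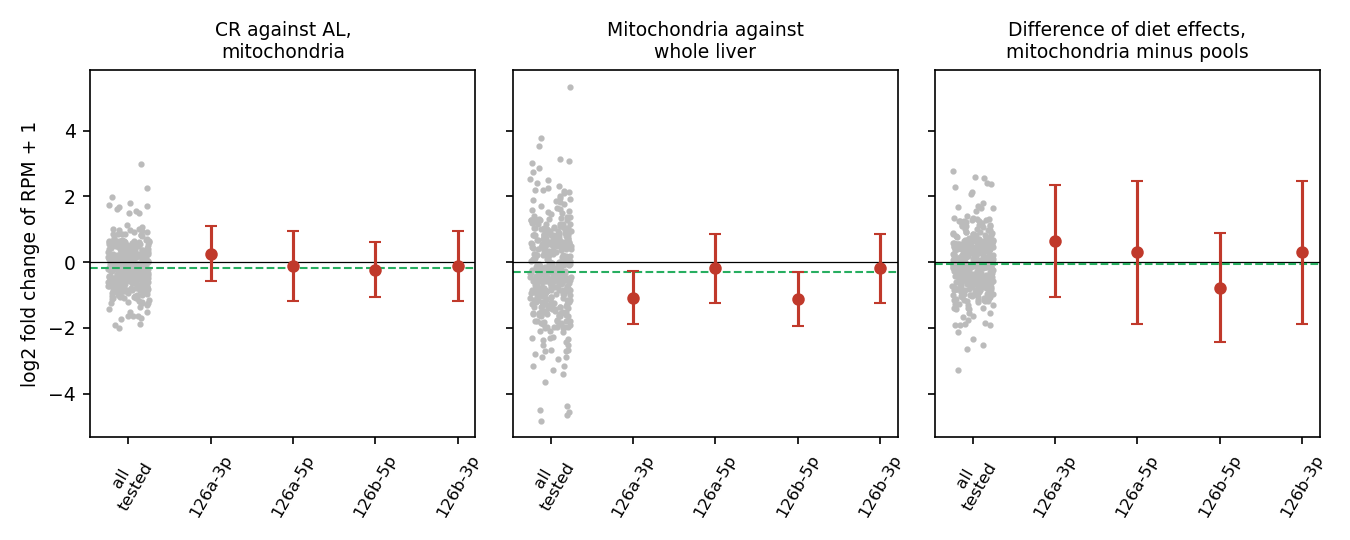
Log2 fold changes of RPM + 1 by limma-trend in 3 panels (CR over AL in mitochondria, mitochondria over whole liver, and the interaction), with 95% intervals for the 4 names in red, all 417 tested miRNAs as grey points and their median as a dashed line. For diet and for the interaction all 4 intervals cross 0, and against whole liver those of miR-126a-3p (-1.89 to -0.26) and miR-126b-5p (-1.93 to -0.31) lie below 0.

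Marker miRNAs of other liver cells were summed in each library and also tested one by one against whole liver by limma-trend. Of all 417 tested names 44 (10.6%) were called higher in mitochondria and 90 (21.6%) lower. Below both pools in all 6 mitochondrial libraries were 113 of the 417 (27.1%), and the share above both pools was not computed. Hepatocyte markers (5 of 5 listed) summed to 508083 to 702765 RPM in mitochondria and 463989 to 553007 RPM in the pools, and erythroid markers (3 of 3) to 41.5 to 75.8 RPM in mitochondria and 40.7 to 73.1 RPM in the pools. These ranges overlapped, and 0 of the 5 and 0 of the 3 passed. Bile duct markers (5 of 5) summed to 240 to 499 RPM in mitochondria and 764 to 784 RPM in the pools, with 2 of 5 called lower. The lists of leukocytes and stellate cells were divided. Leukocyte and Kupffer cell markers (6 of 6) summed to 2959 to 11011 RPM in mitochondria and 710 to 1029 RPM in the pools, but 1 of 6 was called higher and 0 lower, with a median log2 fold change of -0.56. The 1 called was miR-146a-5p (3.54, limma-trend adjusted p 7.16e-07), named after its value was seen. Stellate cell and fibroblast markers (5 of 5) summed to 25517 to 47282 RPM in mitochondria and 14443 to 15573 RPM in the pools, with 1 called higher (miR-143-3p), 2 called lower and a median of -0.16. The sum of both miR-126a arms, the endothelial marker, was 6694 to 18066 RPM in mitochondria and 14978 to 19607 RPM in the pools. miR-126a-3p is also, with miR-223-3p, in a platelet list shared with leukocytes and endothelium. That list summed to 5559.6 to 15436.5 RPM in mitochondria and 13760 to 18000.8 RPM in the pools. No marker was at 0 in any library.

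Between the diets the leukocyte sum in mitochondria was 2959 to 4840 RPM under CR and 8026 to 11011 RPM under AL, without overlap. Of the 417 single names 79 (18.9%) likewise did not overlap between CR and AL mitochondria, and 0 of the 6 leukocyte markers passed the limma-trend test. Of the 5 stellate cell and fibroblast markers 1 was called lower under CR, the only 1 of all 417 names (0.24%) called lower in that fit. The part of these cell types in the miR-126 levels was not tested.

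In whole liver the diets could be set side by side only as 1 pool each. miR-126a-3p in the CR pool was 0.765 times its level in the AL pool (exact 95% interval 0.755 to 0.775), and miR-126a-5p 0.753 times (0.721 to 0.787). miR-126b-3p gave the same 0.753. miR-126b-5p went the other way, at 1.47 times (1.26 to 1.71). These intervals cover counting error only, and the difference has no replicate check. Over the 243 miRNAs with at least 10 RPM in 1 of the pools the median log2 ratio, CR over AL with 1 RPM added to both, was -0.22, while without that addition miR-126a-3p was at -0.39 and miR-126b-5p at 0.55. At least 2-fold differences were seen for 10 miRNAs higher and 17 lower in the CR pool, and for 0 of the 4 miR-126 names.

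Whether the diet difference in mitochondria departed from that between the pools was tested as an interaction. The log2 difference was 0.64 for miR-126a-3p (SE 0.81), 0.29 for miR-126a-5p and miR-126b-3p (SE 1.04) and -0.78 for miR-126b-5p (SE 0.79), each with an adjusted p of 0.998 by limma-trend. The fit called 0 of 417 names (0%), with 5 at an unadjusted p under 0.05, and 0 were called by edgeR, DESeq2 or limma-voom.

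The 5p reads of miR-126a are, but for 1 read in the CR pool, those also printed as miR-126b-3p. They cannot be assigned to the miR-126a hairpin alone, which limits each arm share and arm ratio given here. The share of the 3p arm among the reads of both miR-126a arms does not depend on the total of a library. It was 79.2%, 85.4% and 93.2% in CR mitochondria, 72.9%, 90.7% and 84.4% in AL mitochondria, 91.8% in the CR pool and 91.6% in the AL pool. The exact binomial 95% intervals were 78.4% to 80.1% in CR replicate 1 and 72.0% to 73.8% in AL replicate 1. The intervals of CR replicate 2 and AL replicate 3 overlapped, as did those of the pools. In folds, the 3p arm had 3.82, 5.83 and 13.7 times the reads of the 5p arm in CR mitochondria. It had 2.69, 9.79 and 5.43 times as many in AL mitochondria, 11.1 times in the CR pool and 11.0 times in the AL pool. The pools were close to each other, and the mitochondrial libraries spread on both sides of them, with CR replicate 3 above.

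The share averaged 85.9% ± 7.0 in CR mitochondria and 82.7% ± 9.04 in AL mitochondria (SD, n = 3 each), a difference of 3.24 percentage points (exact two-sided permutation p = 0.6, where 0.1 is the smallest possible). The 6 mitochondrial libraries averaged 84.3% ± 7.45, which was -7.39 points from the mean of the pools (exact two-sided permutation p = 0.286, smallest possible 0.0714). The share of miR-126a-3p with miR-126b-5p among all 4 names was also compared, with the shared 5p reads counted under both names. It differed by 4.55 points between the diets and by -11.1 points between the fractions (exact two-sided permutation p = 0.7 and 0.286). On the log2 scale the 3p over 5p ratio differed by 0.36 between CR and AL mitochondria (SE 0.67, limma adjusted p 0.823 over 111 hairpins with both arms). Between the diets 0 of the 111 hairpins (0%) passed for that ratio by limma, while 9 had an unadjusted p under 0.05. Mitochondria against whole liver gave -0.90 (SE 0.62, limma adjusted p 0.298), where 36 of 111 hairpins passed (32.4%) and the median change was 0.29.

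Among hairpins, miR-126a had an arm ratio that varied much between libraries. The SD of its log2 3p over 5p ratio over the 6 mitochondrial libraries was 0.860. This was the highest of the 14 hairpins with at least 50 reads on each arm in every mitochondrial library, where the range was 0.212 to 0.860 and the median 0.539. The 5p reads in the ratio of miR-126a are those also printed as miR-126b-3p, so the spread cannot be assigned to the miR-126a hairpin alone.

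**Figure D5:**
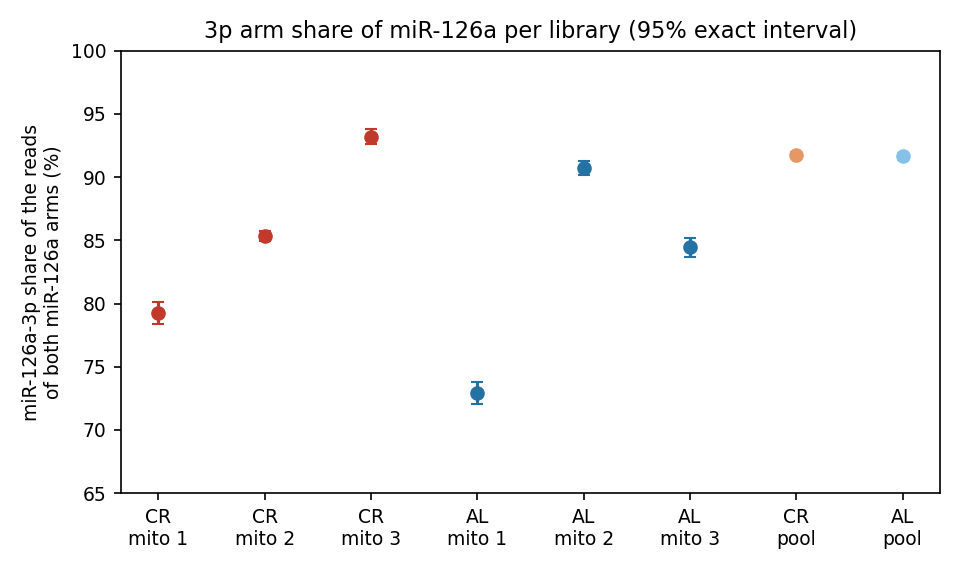
Share of miR-126a-3p among the reads of both miR-126a arms, in percent, by library, with exact 95% binomial intervals that cover counting error only. The pools sit at 91.8% (CR) and 91.6% (AL), and the mitochondrial libraries lie between 72.9% and 93.2% with CR and AL overlapping.

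The 5 miRNA names whose log2(RPM + 1) values followed those of miR-126a-3p most closely over the 8 libraries were miR-100-5p, miR-467a-5p, miR-467b-5p, miR-3074-5p and miR-200c-3p, with Pearson's r of 0.90, 0.89, 0.89, 0.89 and 0.88. These are descriptions that rest partly on the gap between fractions and on a shared total. Within the 6 mitochondrial libraries r was 0.93, 0.76, 0.76, 0.83 and 0.96. miR-3074-5p is antisense by sequence to miR-24-3p, with 14874 reads over the 8 libraries beside 15243. miR-24-3p was the next closest name, with r of 0.87 over the 8 libraries. miR-100-5p, a relative of miR-99, had 407, 845 and 552 RPM in CR mitochondria, 504, 587 and 517 RPM in AL mitochondria, 1682 RPM in the CR pool and 2089 RPM in the AL pool. miR-200c-3p, an epithelial miRNA, had 5.0, 33.6 and 4.67 RPM in CR mitochondria, 8.31, 8.22 and 7.03 RPM in AL mitochondria, 11.1 RPM in the CR pool and 19.3 RPM in the AL pool. As for miR-126a-3p, CR replicate 2 was the highest mitochondrial library for both. miR-467a-5p and miR-467b-5p had identical values in all 8 libraries, with 11.1 RPM in the CR pool and 12.3 RPM in the AL pool. Their levels in mitochondria were only 0.703 to 5.07 RPM, and the 0.703 RPM of AL replicate 3 is the value of 1 read.

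Of 21 miRNAs known in endothelial cells or vessel walls, 17 are not miR-126 names, and most of those are made in other cells as well. All 21 were tested. In the diet comparison in mitochondria 0 of the 17 passed, with a median log2 fold change of -0.14 beside -0.17 for all 417. The extremes were miR-27b-3p, of the cluster with miR-23b and miR-24, at -0.57 and miR-221-3p at -0.50 on the low side, and miR-210-3p, which is induced by hypoxia, at 0.48 and miR-92a-3p, of the miR-17-92 cluster, at 0.26 on the high side.

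Against whole liver 2 of the 17 were higher and 4 were lower in mitochondria, near the shares of all 417 names (10.6% higher and 21.6% lower), with a median of -0.44 beside -0.31. miR-27b-3p was lower in mitochondria, with a mean of 2852 RPM under CR and 4254 RPM under AL and 13357 RPM in the pools (log2 fold change -1.96, limma-trend adjusted p 0.000153). miR-92a-3p was lower too (-1.78, limma-trend adjusted p 0.00507). miR-10b-5p was higher in mitochondria, with a mean of 275 RPM and 45.3 RPM in the pools (2.50, limma-trend adjusted p 7.36e-05), and so was miR-143-3p of smooth muscle and stellate cells (1.48, limma-trend adjusted p 0.00386). In the interaction 0 of the 17 passed, and the extremes were miR-10b-5p at -0.81 and miR-210-3p at -0.67, and miR-23a-3p at 1.12 and miR-23b-3p at 0.65. The fold change of miR-126a-3p against whole liver lay between these extremes.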

How the data were processed

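Per the submitters' processing notes the reads were mapped to mm9 with Bowtie, version not given; naming, mismatch, multiple-hit and strand rules are not given in the sources used here. The deposited values are RPM, under a column named tpm, and sum to 1000000 in each library; a missing name was taken as 0. All values (100%) were whole multiples of the value of 1 read within 0.01 read, so reads were recovered by division. The members, lists and tests were chosen with earlier results of these data known. The design planned edgeR for raw counts; as the authors deposited RPM, the main test was limma-trend on log2(RPM + 1), with limma 3.58.1 under R 4.3.3. It covered the 417 of 862 names that reached 1 RPM in 3 or more libraries. P-values were Benjamini-Hochberg adjusted, with 0.05 as the threshold. The diet fit used the 6 mitochondrial libraries and the other fits all 8. edgeR 4.0.16 and DESeq2 1.42.0 on the recovered reads, limma-voom, other scalings, filters and pseudocounts, and leaving out each mitochondrial library were alternatives. The arm ratio over hairpins and levels without miR-122 were added after seeing the data. Only the diet fit in mitochondria was run on simulated counts, and its outcome is not reported here. Shares had exact binomial 95% intervals and two-sided exact permutation tests (Python 3.11.15, scipy 1.17.1). A list of marker miRNAs per cell type and 21 endothelial or vascular miRNAs were used. Named besides the 4 members were the 4 other antisense pairs with the most reads, the 5 names closest to miR-126a-3p, the 2 endothelial list members with the largest fold change in each direction, and miR-122. Positions are from RefSeq GRCm38.p6 and GENCODE M21, not from the authors' alignment.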

Additional observations from a re-analysis of the deposited data

How the results depend on the processing

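Diet in mitochondria: the log2 fold change of miR-126a-5p and miR-126b-3p turned positive with TMM factors (0.22), DESeq2 size factors (0.12), upper quartile factors (0.052), miR-122 left out of the total (0.031), edgeR (0.32), DESeq2 (0.24) and limma-voom (0.20), and that of miR-126b-5p with TMM factors (0.10), DESeq2 size factors (0.0052), edgeR (0.074) and limma-voom (0.10). Leaving out 1 mitochondrial library gave -0.21 to 0.52 for miR-126a-3p, -0.68 to 0.59 for miR-126a-5p and miR-126b-3p and -0.48 to 0.051 for miR-126b-5p. None passed in any alternative. The number of names called, 2, became 6 with no filter, 4 with a filter of 10 RPM or without miR-122 in the total, 5 with TMM factors, DESeq2 size factors or limma-voom, 10 with edgeR, 11 with DESeq2 and 0 to 5 without 1 library. With the replicate block it was 5. Deviations of same-numbered CR and AL libraries correlated at 0.36, 0.086 and 0.10 for replicates 1, 2 and 3, and those of unlike-numbered libraries at -0.28 to 0.20. CR replicates 1 and 2 correlated best with the AL library of their own number, and CR replicate 3 with AL replicate 2 (0.20). Whether same-numbered libraries are paired is not given in the labels. The block changed no call on the 4 names.

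Mitochondria against whole liver: miR-126a-3p missed the threshold with no filter (-1.08), TMM factors (-0.78), DESeq2 size factors (-0.77), upper quartile factors (-0.86), miR-122 left out (-0.66), edgeR (-0.63), DESeq2 (-0.74), limma-voom (-0.65) and the CR libraries alone (-0.76). miR-126b-5p missed it with no filter (-1.12), TMM factors (-0.83), DESeq2 size factors (-0.81), upper quartile factors (-0.90), miR-122 left out (-0.71), edgeR (-0.67), DESeq2 (-0.80), limma-voom (-0.69), the AL libraries alone (-0.73) and the CR libraries alone (-1.51). Without 1 library miR-126a-3p was at -1.31 to -0.97, miR-126b-5p at -1.27 to -0.97, and miR-126a-5p and miR-126b-3p at -0.46 to 0.14. miR-126a-5p and miR-126b-3p turned positive with TMM factors (0.12), DESeq2 size factors (0.13), upper quartile factors (0.041), miR-122 left out (0.24), edgeR (0.43), DESeq2 (0.31) and limma-voom (0.25). The number called was 57 with AL libraries alone and 76 with CR libraries alone; of the interaction, 129 with no filter, and its values for miR-126a-5p and miR-126b-3p were -0.27 to 0.995 without 1 library.

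The ratio of the CR pool to the AL pool was 0.947, 0.856 and 0.935 for miR-126a-3p with TMM, DESeq2 size and upper quartile factors, 0.932, 0.843 and 0.921 for miR-126a-5p and for miR-126b-3p, and for miR-126b-5p 1.81 with TMM and 1.79 with upper quartile factors. Without 1 library the difference of the 3p share between the diets was -1.66 to 7.26 points, and the log2 arm ratio -0.15 to 0.82 for diet and -0.17 to 0.79 for the interaction. Fits in which 1 library was left out keep 2 per diet at least, and with AL or CR libraries alone the single pool is taken to spread as mitochondrial libraries do. Where a call was lost, the cause was not tested.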

Other observations

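Over the 6 mitochondrial libraries, 3 relations between the miR-126 names were computed on log2(RPM + 1), and none is explained here. miR-126b-5p, which faces the 3p arm, followed miR-126a-5p with Pearson's r of 0.94 (exact permutation p = 0.0111, adjusted over the 3 relations 0.0333) and Spearman's rho of 0.89 (exact permutation p = 0.0333, adjusted 0.1). Without the libraries farthest from the median of miR-126a-5p, CR replicates 2 and 3, r was 0.95. The values of miR-126a-5p are also those of miR-126b-3p, the other arm of the hairpin of miR-126b-5p, for which r was likewise 0.94. Which of these names the relation belongs to cannot be told apart. With miR-126a-3p, the name on the other strand at its own position, miR-126b-5p had r of 0.24 (exact permutation p = 0.647, adjusted 0.647) and rho of 0.26 (exact permutation p = 0.658), and r of 0.36 without CR replicate 2 and AL replicate 2. miR-126a-5p with miR-126a-3p had r of 0.49 (exact permutation p = 0.336, adjusted 0.504) and rho of 0.31 (exact permutation p = 0.564), and r of 0.27 without the same 2 libraries. With 3 libraries a diet, no relation within a diet was computed.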
